A study of Mus musculus with 6 samples.

Results

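The genes described here encode the chains of 2 families of adhesion proteins, 24 integrin chains (16 alpha and 8 beta) and 10 laminin chains (5 alpha, 3 beta and 2 gamma). These 34 genes, of 55385 in the files, were listed by name, and the list was selected from earlier results of the same contrast, so their differences between the groups are given as a description without p-values. The data were RNA-seq counts from 6 libraries of mouse primary cortical neurons, in a study whose title concerns the mRNA cap methyltransferase RNMT in neuron development and activity. Neurons were taken from the cortex of E18 embryos and kept in vitro for 16 days, and all received AraC, a nucleoside analogue that kills dividing cells, at 2.5 uM for 24 hours from day 2. The 3 libraries labelled activated came from cultures given KCl for 5 minutes and 30 minutes of recovery, with the KCl concentration written as 50 mM in the treatment protocol and 50 uM in the sample characteristics. The 3 libraries labelled control came from untreated cultures. Strain and genotype were not given, nor was it stated that replicates stem from separate cultures or animals, so the errors below measure only the spread between these libraries.

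Integrins are receptors in the plasma membrane, each built from 1 alpha and 1 beta chain, which bind proteins of the extracellular matrix or of other cells outside and connect to the actin cytoskeleton inside. Laminins are large secreted trimers of an alpha, a beta and a gamma chain and are the main self-assembling proteins of basement membranes. In the brain, basement membranes line the blood vessels and the pial surface, where the endfeet of astrocytes and radial glia attach to laminin through integrins and through dystroglycan.

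The libraries held 17752711 to 32740171 gene reads in the labelled activated group and 22994946 to 32919975 in the labelled control group. The rapid activity-induced genes went against the labels: all 12 on that list were lower in the libraries labelled activated, with summed levels of 656 to 816 CPM (counts scaled to library size) against 1790 to 1925 CPM in the libraries labelled control, so every direction below rests on the labels alone. Neuronal markers were abundant in every library (10 pan-neuronal genes summed to 5003 to 5551 CPM in labelled activated and 5931 to 6067 CPM in labelled control libraries). Markers of non-neuronal cells moved with the group. Over all genes tested, 16.2% were called higher and 20.6% lower, to be set beside every count of markers given here and below. Of 14 astrocyte markers tested, 12 were higher and none lower, with summed levels of 1924 to 2345 CPM in labelled activated and 1458 to 1511 CPM in labelled control libraries. Of the oligodendrocyte lineage and choroid plexus markers tested, 4 of 7 and 3 of 6 were higher and none lower. The oligodendrocyte markers Sox10, Mog, Mag, Mobp and Enpp6 had too few reads to test, 3 to 19 in all 6 libraries together. Mbp was not called (log2 fold change −0.005). Of 10 pan-neuronal markers, 8 were lower and Map2 was higher (log2 fold change 0.26), and of 13 inhibitory neuron markers 8 were lower and none higher. Of 12 excitatory neuron markers, 7 were lower and Camk2a was higher (0.36), and their summed levels were 2325 to 2511 CPM in labelled activated and 2199 to 2308 CPM in labelled control libraries. No marker on the non-neuronal lists was lower at an unadjusted p below 0.05 in edgeR. Mitochondrial genes held 21.3 to 25.0% of gene reads in labelled activated and 14.7 to 17.1% in labelled control libraries. With the mitochondrial genes left out, an alternative chosen after seeing the data, 22 chains were still called higher.

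Of the 34 chains, 33 had enough reads to be tested, and 22 were higher in the libraries labelled activated, none was lower and 11 were not called (edgeR's quasi-likelihood test, Benjamini-Hochberg adjusted p below 0.05 over 18132 genes). None was lower at an unadjusted p below 0.05, nor called lower by DESeq2. The edgeR test called 16.2% of all tested genes higher and 20.6% lower. Since the chains were selected with this contrast in view, nothing is read from the difference between these shares. The median log2 fold change of the 33 chains was 0.55, against 0.04 over all genes tested, and 32 of the 33 had a positive value. Over all genes tested, 9839 of 18132 had a positive value. In 23 of the 33, every labelled activated library lay above every labelled control library, in none below, and in 10 the groups overlapped; over all genes, 22.6% lay above and 26.4% below. The astrocyte markers given above moved in the same direction, with a median log2 fold change of 0.58; their part in the result was not tested. In RNA from whole cultures, more cells of a type and more RNA per cell cannot be told apart.

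Per kilobase of exon, the chains spanned a wide range of level, and 16 of the 34 exceeded 1 RPKM (CPM per kilobase of exon) in the labelled control group. The length used was the union of a gene's exons, which for Lamb1 was 9917 bp, against 5784 bp in its longest transcript. For Lama4 it was 12068 bp against 6046 bp, so the order below is given for this length only. Itgb1 stood first with 28.6 ± 2.60 RPKM (SD, n = 3 in every group here), followed by Itgav, which lay between 11.9 and 12.1 RPKM in all 3 libraries of the group, Itgb8 at 9.77 ± 0.571 RPKM, Lamc1 at 9.14 ± 0.384 RPKM and Itgb5 at 7.67 ± 0.775 RPKM. The ranges of Itgb1 and Itgav did not touch, nor did those of Itgav and Itgb8, whereas Itgb8 and Lamc1, Itgb5 and Lamb1, and Itga3 and Lamb2 overlapped with each other. From Lama1 at rank 11 to Itga1 at rank 21, every neighbouring pair overlapped, so the order within that stretch is not resolved. Itgb6, the epithelial partner of Itgav, came last with 2 to 4 reads in the labelled activated and 3 to 5 reads in the labelled control libraries, and was not tested.

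**Figure D1:**
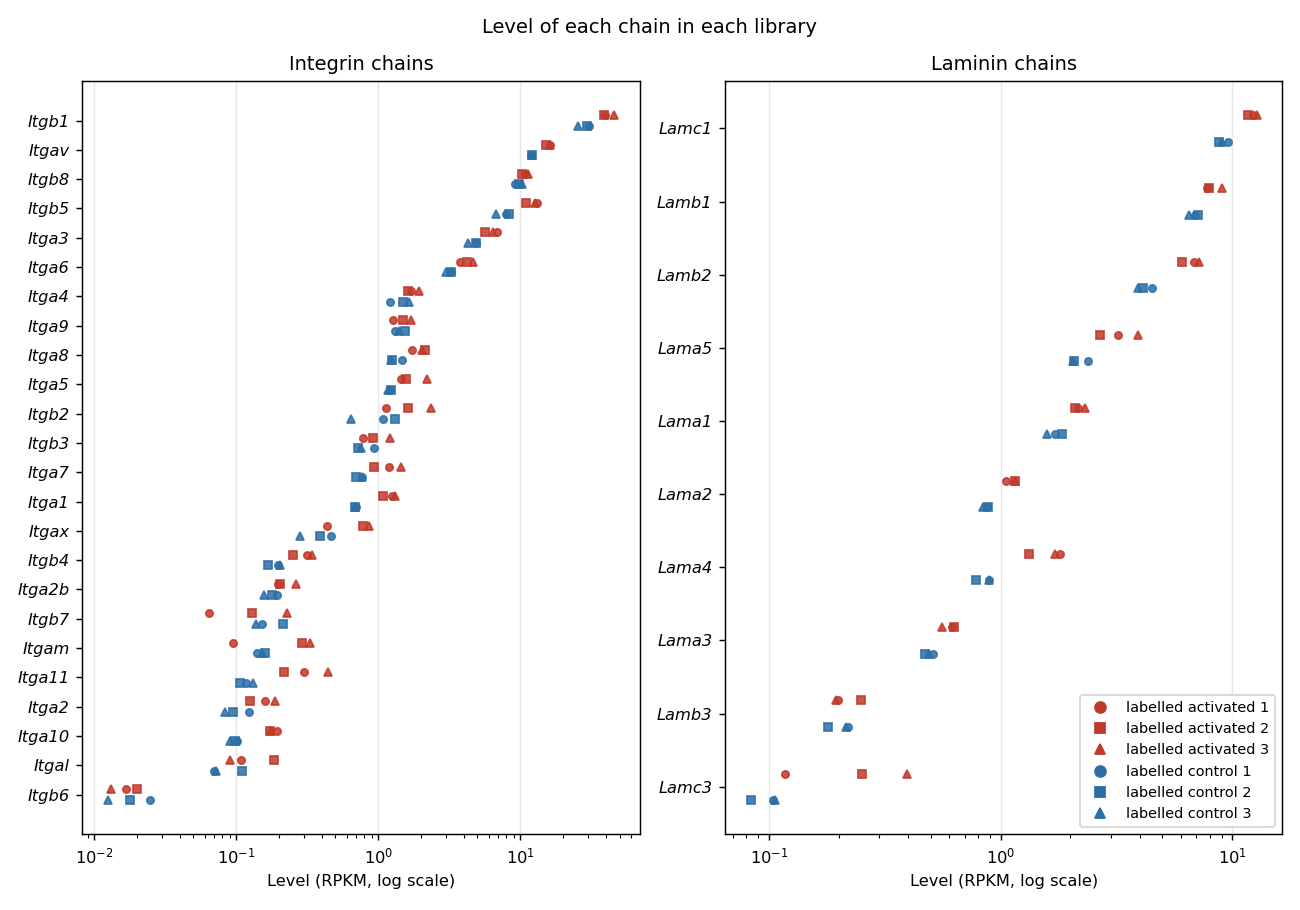
Level of each of the 34 chains in each library, in RPKM on a log axis, with integrins on the left and laminins on the right; red symbols are the libraries labelled activated, drawn above the blue symbols of the libraries labelled control, and the symbol shape gives the replicate. Itgb1 and Lamc1 stand highest in their families, and the groups separate for most chains above 1 RPKM, with Itgb8, Itga4, Itga9 and Itgb2 overlapping.

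Among the integrin beta chains, Itgb1 (chr8:128685654-128733200 in GRCm38, plus strand) is the partner of most alpha chains. It had 162, 158 and 187 CPM in the libraries labelled activated, against 125, 120 and 105 CPM in the libraries labelled control. All 3 labelled activated libraries lay above the control range, with a log2 fold change of 0.54 ± 0.08 (SE) that passed the threshold. Itgb5, which pairs with Itgav to bind vitronectin, had 46.4, 39.0 and 45.0 CPM in labelled activated and 28.2, 29.4 and 24.2 CPM in labelled control libraries. It was called higher, with the larger log2 fold change of 0.67 ± 0.09. Itgb8, the beta chain through which Itgav activates latent TGF-beta in glia, had 119, 115 and 125 CPM in labelled activated and 102, 108 and 115 CPM in labelled control libraries. The lowest labelled activated library was level with the highest control library at 115 CPM, and its log2 fold change of 0.14 ± 0.06 did not pass.

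The remaining beta chains were low. Itgb3, the partner of Itgav and of the platelet chain Itga2b, had 4.64, 5.45 and 7.11 CPM in labelled activated and 5.47, 4.23 and 4.43 CPM in labelled control libraries, with overlapping groups and no call (0.30 ± 0.17). Itgb4, the hemidesmosome chain that pairs with Itga6, had 2.20, 1.76 and 2.41 CPM in labelled activated and 1.38, 1.18 and 1.42 CPM in labelled control libraries. Its groups did not overlap and its log2 fold change of 0.67 ± 0.21 passed, although the call was lost when any of the 3 control libraries or labelled activated 1 or 3 was left out (0.54 to 0.72), and in the DESeq2 Wald test on all 6 libraries (0.67). Itgb7, a lymphocyte chain that pairs with Itga4, was the only tested chain with a negative log2 fold change, −0.12 ± 0.41. It had 0.178, 0.359 and 0.627 CPM in labelled activated and 0.423, 0.592 and 0.384 CPM in labelled control libraries, and the groups overlapped.

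The ratio of Itgb8 to Itgb1 was lower in the libraries labelled activated. Itgb8 amounted to 0.270, 0.267 and 0.246 of the Itgb1 level per kilobase in the libraries labelled activated, against 0.300, 0.330 and 0.403 in the libraries labelled control. No labelled activated library reached the lowest control ratio. Of the summed beta-chain RPKM, Itgb8 took 16.0 ± 0.628% in labelled activated and 20.4 ± 2.54% in labelled control libraries, while Itgb1 took 61.3 ± 0.847% in labelled activated and 59.3 ± 1.75% in labelled control libraries. Itgav is the only alpha chain known to pair with Itgb8, and its level over that of Itgb8 was 1.52, 1.48 and 1.43 in labelled activated and 1.29, 1.24 and 1.17 in labelled control libraries, again without overlap. Itgb5 over Itgb1 overlapped between the groups. These and the other chain ratios, 12 pairs in all, were chosen after the values were seen and have no test. The size of each ratio depends on the exon lengths used, whereas the fold difference of a ratio between the groups does not.

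The promoters of Itgb1 and Itgb8 are shown because their ratio separated the groups. Each window holds the 250 bases before the RefSeq start site and 50 bases from it (GRCm38.p6), 5′ to 3′ on the gene's strand, with motif matches in capitals. Itgb1 is chr8:128685404-128685703 on the plus strand and Itgb8 is chr12:119238227-119238526 on the minus strand.
Itgb1: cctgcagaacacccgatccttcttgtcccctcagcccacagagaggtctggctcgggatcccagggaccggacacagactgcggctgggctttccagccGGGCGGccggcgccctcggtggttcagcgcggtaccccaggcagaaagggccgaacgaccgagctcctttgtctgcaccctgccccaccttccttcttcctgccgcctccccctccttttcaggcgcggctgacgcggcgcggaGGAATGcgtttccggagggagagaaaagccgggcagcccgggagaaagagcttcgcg
Itgb8: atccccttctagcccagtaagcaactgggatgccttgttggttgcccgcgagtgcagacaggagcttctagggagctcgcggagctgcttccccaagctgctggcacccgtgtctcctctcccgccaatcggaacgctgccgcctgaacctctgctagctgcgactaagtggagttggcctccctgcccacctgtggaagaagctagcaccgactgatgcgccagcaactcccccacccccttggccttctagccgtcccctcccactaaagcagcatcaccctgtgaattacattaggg
Itgb1 held a GC box at −151 and a TEAD site at −7, counted to the first base of the match from the start site, and Itgb8 held no match to the 5 motifs searched. The RefSeq start site of Itgb8 lies inside the GENCODE gene body, which reaches upstream to 119238802. The Itgb8 window therefore does not cover the start of the GENCODE gene.

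The motifs were an AP-1 site (TGANTCA), a CRE (TGACGTCA), a TEAD site (GGAATG), a GC box (GGGCGG) and the CArG box, searched on both strands; none of them contains another. RefSeq windows were matched for 23 of the 34 chains, 26 windows in all. A GC box stood in 12 of the 26 windows, against 35.7% of all 32851 windows, an AP-1 site in 3 (Itga3, Itga9 and Itgax) against 7.81%, and a TEAD site in 3 (Itga10, Itgb1 and Lamb3) against 14.7%. A CArG box stood in 2 (Itgb6 and Lama2) against 1.63%, and no window of these chains held a CRE, against 1.79%. The median GC content was 58.8% in the windows of the chains and 52.7% in all windows. A match describes letters only and is not evidence of binding.

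The alpha chains that recognise RGD-type ligands were led by Itgav (chr2:83724397-83806916, plus strand), which pairs with Itgb1, Itgb3, Itgb5, Itgb6 and Itgb8 and binds vitronectin, fibronectin and latent TGF-beta. Itgav had 175, 164 and 173 CPM in the libraries labelled activated, against 128, 130 and 130 CPM in the libraries labelled control. The control libraries lay very close together, all labelled activated libraries lay above them, and the log2 fold change of 0.40 ± 0.06 passed. Itga8, which with Itgb1 binds nephronectin, had 12.8, 15.8 and 15.1 CPM in labelled activated and 10.8, 9.22 and 9.04 CPM in labelled control libraries, and was called at 0.60 ± 0.11. Itga5, the fibronectin receptor chain, had 7.19, 7.71 and 10.9 CPM in labelled activated libraries and between 5.79 and 6.09 CPM in each labelled control library. Its log2 fold change of 0.55 ± 0.15 passed, but it was 0.33 and no longer called without labelled activated 3, the highest library. Itga2b, the platelet chain, had 1.07, 1.11 and 1.44 CPM in labelled activated and 1.06, 0.973 and 0.856 CPM in labelled control libraries, and was not called (0.35 ± 0.25).

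The alpha chains Itga3, Itga6 and Itga7, which bind laminin, were each called higher. Itga3, which pairs with Itgb1, had 38.9, 32.2 and 36.6 CPM in labelled activated and 28.1, 27.8 and 24.4 CPM in labelled control libraries. Itga6, which pairs with Itgb1 or Itgb4 and is long used as a marker of stem and basal cells, had 33.8, 37.9 and 42.3 CPM in labelled activated and 29.2, 29.2 and 27.1 CPM in labelled control libraries. The 2 chains had the same log2 fold change, 0.42 ± 0.08, without overlap of the groups. Itga7, the muscle laminin receptor chain, had 9.57, 7.61 and 11.6 CPM in labelled activated and 6.25, 5.63 and 6.23 CPM in labelled control libraries, for 0.67 ± 0.15. The ratio of Itga7 to Itga6 overlapped between the groups, as did that of Itga6 to Itgb1.

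The collagen-binding alpha chains all pair with Itgb1, and 3 of the 4 were called. Itga1 was the most abundant per kilobase and had 23.1, 20.2 and 24.2 CPM in labelled activated and 13.1, 12.8 and 12.7 CPM in labelled control libraries. Its groups lay far apart in relation to their spread, with a log2 fold change of 0.81 ± 0.09. Itga10, the cartilage collagen receptor chain, had 1.01, 0.897 and 0.909 CPM in labelled activated and 0.529, 0.508 and 0.472 CPM in labelled control libraries (0.89 ± 0.28). That call was lost in unstranded counts (0.64) and without any 1 of the control libraries or labelled activated 1 (0.84 to 0.94). Itga11, a collagen receptor chain of fibroblasts, had 1.55, 1.11 and 2.29 CPM in labelled activated and 0.600, 0.550 and 0.679 CPM in labelled control libraries (1.44 ± 0.30). Itga2, which binds collagen on platelets and epithelia, had 1.13, 0.897 and 1.35 CPM in labelled activated and 0.882, 0.677 and 0.591 CPM in labelled control libraries (0.66 ± 0.28, not called). Fibroblast markers were called higher for 3 of 7 tested genes and lower for none, with summed levels of 100 to 142 CPM in labelled activated and 77.1 to 92.3 CPM in labelled control libraries; their part in the result was not tested.

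The related chains Itga4 and Itga9 were not called. Itga4, which with Itgb1 binds Vcam1 and fibronectin, had 23.9, 22.8 and 26.9 CPM in labelled activated and 16.9, 20.8 and 23.0 CPM in labelled control libraries, with a log2 fold change of 0.28 ± 0.11. Only labelled activated 2 fell inside the control range, and the call was gained under 7 of 17 alternatives (0.26 to 0.43). Itga9, a receptor chain for tenascin C and osteopontin, had 9.75, 11.6 and 13.0 CPM in labelled activated and 10.1, 11.8 and 10.7 CPM in labelled control libraries, for 0.09 ± 0.12. Set against Itga5, the Itga9 level per kilobase was 0.865 ± 0.0979 in labelled activated and 1.17 ± 0.0873 in labelled control libraries, without overlap.

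**Figure D2:**
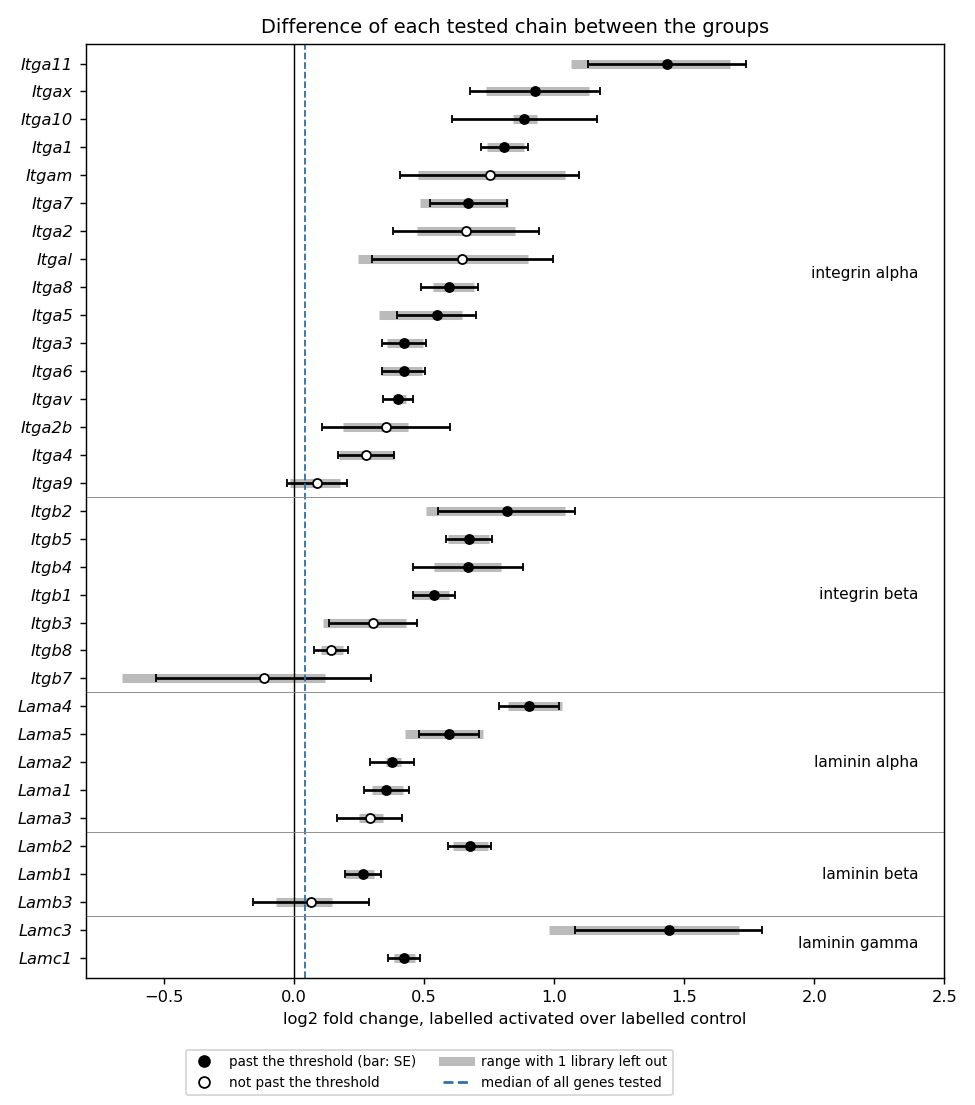
Log2 fold change of the 33 tested chains, labelled activated over labelled control, grouped by family; points are edgeR estimates with their SE, filled where they passed the threshold and open where they did not, grey bars span the values with 1 library left out, and the dashed line is the median of all genes tested (0.04). Of the 33 chains, 32 lie right of 0, from 0.07 for Lamb3 to 1.44 for Lamc3 and Itga11, and Itgb7 lies at −0.12 with the widest bar.

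Itgb2 and 3 of its alpha partners on leukocytes varied widely between the labelled activated libraries. Itgb2, the shared beta chain of leukocyte integrins, had 3.45, 4.95 and 7.21 CPM in labelled activated and 3.28, 3.98 and 1.98 CPM in labelled control libraries. Itgax, the CD11c chain, had 2.08, 3.77 and 4.14 CPM in labelled activated and 2.22, 1.86 and 1.36 CPM in labelled control libraries. Both passed the threshold, Itgb2 at 0.82 ± 0.26 and Itgax at 0.93 ± 0.25, although labelled activated 1 lay inside the control range for each. Itgam, the CD11b chain of complement receptor 3, had 0.476, 1.47 and 1.66 CPM in labelled activated and 0.706, 0.804 and 0.768 CPM in labelled control libraries, so that labelled activated 1 was the lowest of all 6. It was not called at 0.75 ± 0.34, and was called at 1.04 when that library was left out. Itgal, the LFA-1 chain of lymphocytes, had 0.713, 1.22 and 0.595 CPM in labelled activated and 0.459, 0.719 and 0.472 CPM in labelled control libraries and was not called (0.65 ± 0.35).

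Microglia markers were set beside these 4 chains. Itgb7, the lymphocyte chain described above, pairs with other alpha chains and was not called. Summed over the 15 markers, they reached 75.7, 106 and 140 CPM in the libraries labelled activated, against 78.3, 84.5 and 62.1 CPM in the libraries labelled control. Labelled activated 3 was highest and labelled activated 2 next for the markers, for Itgb2, for Itgax and for Itgam, but not for Itgal. Labelled control 3 was the lowest of the 6 for the markers, Itgb2 and Itgax. Of 13 microglia markers tested, 8 were higher and none lower, and the defining homeostatic markers P2ry12 and Tmem119 were near 0, with 25 and 22 reads in all 6 libraries together. The part of the microglia markers in these results was not tested. The call of Itgb2 was lost without labelled control 1 or 3 or labelled activated 3 (0.51 to 0.88), and that of Itgax without labelled control 3 (0.74).

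**Figure D3:**
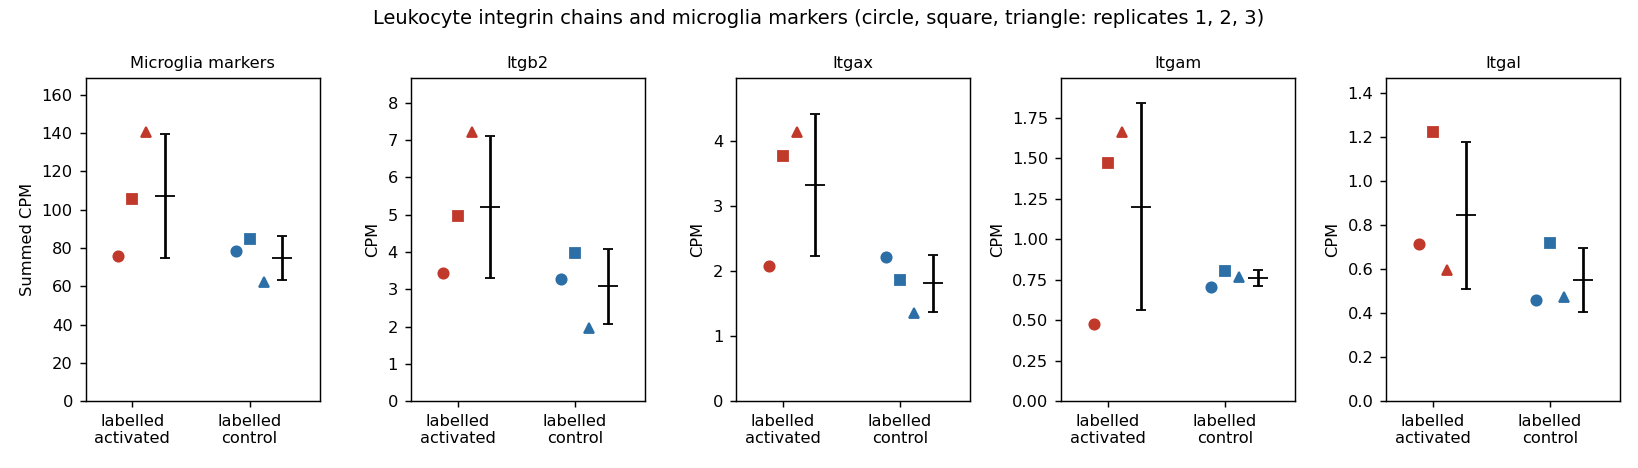
Summed CPM of 15 microglia markers (left panel) and CPM of Itgb2 and 3 of its alpha partners in each library, labelled activated left of labelled control; symbols give replicates 1, 2 and 3, and bars the mean ± SD of 3 libraries. Labelled activated 3 tops the markers, Itgb2, Itgax and Itgam, and labelled activated 1 lies within or below the control range in the same panels.

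Among the laminin alpha chains, Lama5 (chr2:180176373-180225859, minus strand), the widespread chain of vascular and epithelial basement membranes, was the most abundant per kilobase at 3.28 ± 0.625 RPKM in labelled activated and 2.17 ± 0.187 RPKM in labelled control libraries. It had 36.4, 30.7 and 44.9 CPM in labelled activated and 27.2, 23.7 and 23.4 CPM in labelled control libraries (log2 fold change 0.60 ± 0.11, called higher). Lama4, a chain of endothelial basement membranes, had 21.7, 16.0 and 20.7 CPM in labelled activated and 10.8, 9.43 and 10.8 CPM in labelled control libraries. Its log2 fold change was the largest of the laminin alpha chains, 0.90 ± 0.12, and was called. Lama1, the early embryonic and pial chain, had 20.9, 20.2 and 22.3 CPM in labelled activated and 16.7, 17.8 and 15.3 CPM in labelled control libraries (0.36 ± 0.09, called). Lama2, the chain of muscle and of the astrocyte side of vessel walls, had 17.2, 18.9 and 18.8 CPM in labelled activated and 14.3, 14.5 and 13.7 CPM in labelled control libraries (0.38 ± 0.08, called). Lama3, an epithelial chain, had 6.60, 6.78 and 6.02 CPM in labelled activated and 5.47, 5.08 and 5.26 CPM in labelled control libraries. Its groups did not overlap, but 0.29 ± 0.12 did not pass.

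Lama4 had a larger share of the alpha chains in the libraries labelled activated. Its level over that of Lama1 was 0.834, 0.633 and 0.744 in the libraries labelled activated, against 0.518, 0.426 and 0.565 in the libraries labelled control, without overlap. It made up 18.3% of the summed alpha-chain RPKM in labelled activated and 14.0% in labelled control libraries, whereas Lama1 made up 24.9% in labelled activated and 28.1% in labelled control libraries. The ratio of Lama2 to Lama4 also separated the groups, with 0.710 ± 0.148 in labelled activated and 1.02 ± 0.102 in labelled control libraries, and that of Lama5 to Lama1 overlapped. Vascular markers were at low levels. Endothelial markers summed to 45.2 to 49.0 CPM in labelled activated and 30.4 to 34.1 CPM in labelled control libraries, with 3 of 6 tested genes higher and none lower, while Cldn5 and Cdh5, which define endothelium, had 1 and 5 reads in all 6 libraries together. Mural cell markers summed to 122 to 152 CPM in labelled activated and 79.0 to 92.3 CPM in labelled control libraries, with 6 of 9 higher and none lower. The part of these cells in the laminin differences was not tested.

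Of the laminin beta chains, Lamb1 (chr12:31265234-31329644, plus strand), a chain of the laminins of early development, had 77.5, 78.5 and 89.2 CPM in labelled activated and 68.8, 70.9 and 64.6 CPM in labelled control libraries. It was called higher with a small log2 fold change of 0.27 ± 0.07. Lamb2 (chr9:108479736-108490530, plus strand), the chain of synaptic laminins at the neuromuscular junction and of mature vessels, had 41.4, 36.7 and 43.8 CPM in labelled activated and 27.5, 25.0 and 23.9 CPM in labelled control libraries. Its log2 fold change was 0.68 ± 0.08. Lamb3, which forms epithelial laminin together with Lama3, had 1.31, 1.65 and 1.28 CPM in labelled activated and 1.45, 1.18 and 1.42 CPM in labelled control libraries, and was not called (0.07 ± 0.22).

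The ratio of Lamb2 to Lamb1 per kilobase was 0.872, 0.763 and 0.800 in the libraries labelled activated, against 0.653, 0.574 and 0.604 in the libraries labelled control. The groups did not overlap, and the mean ratio was 0.812 ± 0.0550 in labelled activated and 0.610 ± 0.0398 in labelled control libraries. Lamb2 accordingly took 44.1 ± 1.72% of the summed beta-chain RPKM in labelled activated and 37.2 ± 1.45% in labelled control libraries. Lamb1 over Lamc1 was lower in the libraries labelled activated, 0.672 ± 0.0343, against 0.752 ± 0.0519 in the libraries labelled control. The promoter windows of both beta chains are shown for this pair, in the form given above, for Lamb1 at chr12:31265043-31265342 and for Lamb2 at chr9:108479612-108479911, both on the plus strand.
Lamb1: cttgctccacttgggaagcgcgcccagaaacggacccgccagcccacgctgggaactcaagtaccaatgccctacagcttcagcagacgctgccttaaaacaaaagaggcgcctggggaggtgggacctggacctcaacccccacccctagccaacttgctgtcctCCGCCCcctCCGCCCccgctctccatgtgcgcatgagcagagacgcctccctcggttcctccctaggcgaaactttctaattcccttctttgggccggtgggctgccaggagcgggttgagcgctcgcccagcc
Lamb2: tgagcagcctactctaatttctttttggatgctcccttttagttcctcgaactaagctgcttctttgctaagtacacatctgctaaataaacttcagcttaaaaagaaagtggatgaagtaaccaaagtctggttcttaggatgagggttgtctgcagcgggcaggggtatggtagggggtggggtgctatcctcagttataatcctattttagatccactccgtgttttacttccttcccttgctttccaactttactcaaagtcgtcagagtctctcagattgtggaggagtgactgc
Lamb1 held GC boxes at −84 and −75, both read on the opposite strand, and Lamb2 held no match to the 5 motifs. The RefSeq start sites lie inside the GENCODE gene bodies of both genes.

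**Figure D4:**
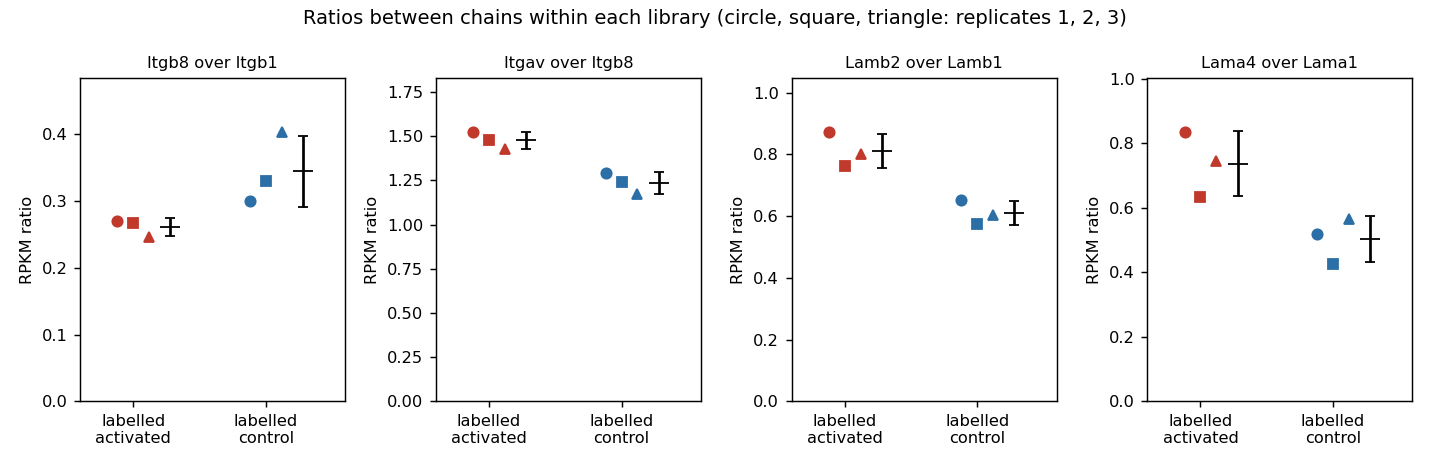
RPKM ratios of 4 pairs of chains in each library, labelled activated left of labelled control; symbols give replicates 1, 2 and 3, and bars the mean ± SD of 3 libraries. Itgb8 over Itgb1 is lower in the libraries labelled activated, and Itgav over Itgb8, Lamb2 over Lamb1 and Lama4 over Lama1 are higher, with no overlap in any panel.

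The gamma chains were Lamc1 and Lamc3. Lamc1 (chr1:153218922-153332786, minus strand), the gamma chain of nearly all laminins, had 102, 96.4 and 106 CPM in labelled activated and 79.1, 72.9 and 74.9 CPM in labelled control libraries. It was called at 0.42 ± 0.06 and carried 98.0% of the summed RPKM of both gamma chains in labelled activated and 98.9% in labelled control libraries. Lamc3 (chr2:31887291-31946539, plus strand), whose human counterpart is mutated in occipital cortical malformations, had 12, 43 and 77 reads in labelled activated and 18, 12 and 22 reads in labelled control libraries. In CPM these were 0.713, 1.54 and 2.41 in labelled activated and 0.635, 0.508 and 0.650 in labelled control libraries. The labelled activated libraries spread widely, with the lowest just above the control range. The log2 fold change was 1.44 ± 0.36, between 0.98 and 1.71 with 1 library left out, and it was called under all 16 alternatives in which it was tested; at least 1 CPM in 3 libraries removed it.

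Summed over each family, all 5 chain classes lay above the control range in every library labelled activated. Integrin alpha chains summed to 37.7 ± 2.20 RPKM in labelled activated and 27.8 ± 0.499 RPKM in labelled control libraries, and integrin beta chains to 67.7 ± 5.69 RPKM in labelled activated and 48.3 ± 3.16 RPKM in labelled control libraries. Laminin alpha chains summed to 8.80 ± 0.887 RPKM in labelled activated and 6.10 ± 0.267 RPKM in labelled control libraries, and laminin beta chains to 15.1 ± 1.12 RPKM in labelled activated and 11.3 ± 0.531 RPKM in labelled control libraries. Gamma chains summed to 12.5 ± 0.652 RPKM in labelled activated and 9.24 ± 0.393 RPKM in labelled control libraries. By count, 14 of 23 tested integrin chains and 8 of 10 laminin chains were called higher, with median log2 fold changes of 0.60 for integrins and 0.40 for laminins. The share called higher over all genes tested was 16.2%. The libraries labelled activated also spread more. The coefficient of variation over replicates had a median of 14.2% in labelled activated and 8.30% in labelled control libraries. For the 20 chains with a labelled control mean of at least 5 CPM, the medians were closer, 9.17% and 6.58% in the same order. Labelled activated 3 was the highest of its group for 23 of the 33 chains.

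Itga11 and Itga2 had most of their reads on the strand opposite to the gene, which the counts above leave out. Over all 6 libraries, reads on the opposite strand made up 72.8% of both strands for Itga11, 66.4% for Itga2, 46.3% for Itgb7, 30.0% for Itgb4 and 21.3% for Itga5, whereas for all genes together the mean share was 4.15% in labelled activated and 4.10% in labelled control libraries. In GENCODE release M21, no annotated exon on the opposite strand overlaps the exons of Itga11, Itga2, Itgb7 or Itga5, and 7.66% of the Itgb4 exon length is shared with the opposite-strand gene B230344G16Rik. In unstranded counts the log2 fold change of Itga11 was 0.44 and still called, against 1.44 on its own strand. Of the chains with an overlapping gene on the same strand, Itgam shares 68.7% of its exon length with Gm49368, which had 0 reads, and Itga10 shares 33.5% with Gm42957, which had 7, so the level of each is uncertain to the extent that reads were set aside as ambiguous.

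**Figure D5:**
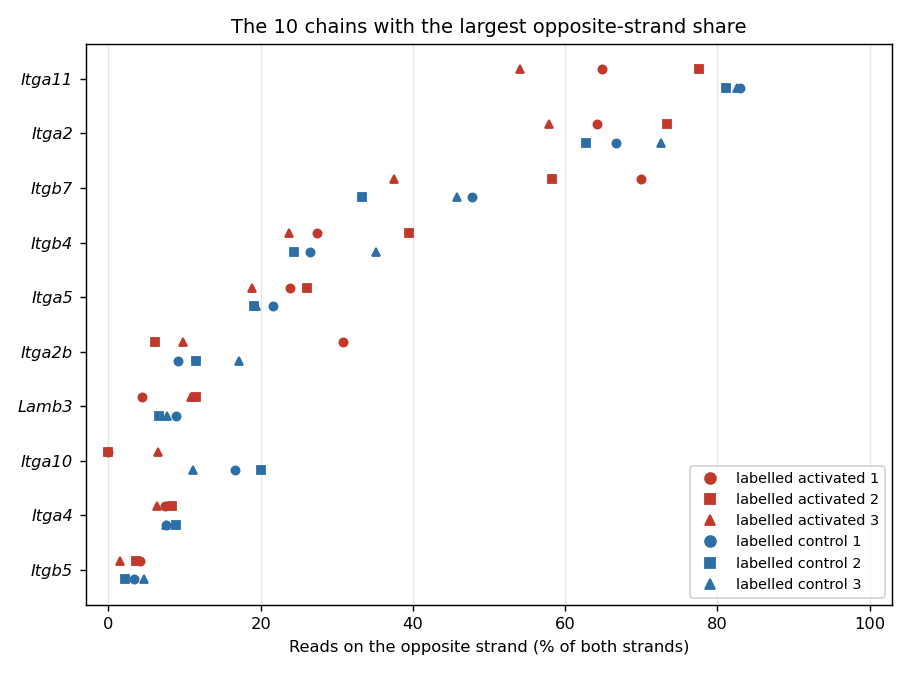
Share of reads on the strand opposite to the gene, in percent of the reads on both strands, for the 10 chains with the largest share, with the libraries labelled activated (red) above those labelled control (blue). Itga11 and Itga2 have the highest shares, 72.8% and 66.4% over all libraries, and Itga11 is lower in each library labelled activated than in any labelled control.

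Other genes of the same pathways were described from 4 further lists, with the 4 genes of smallest p in each (edgeR's quasi-likelihood test). These genes were picked by that p from these same libraries, so no p-values are given for them. For comparison with the counts of calls, 16.2% of all genes tested were higher and 20.6% lower. Of 14 basement membrane components other than laminins, 12 were higher in the libraries labelled activated, none was lower, and Col4a3 and Col4a4 were not called; the median log2 fold change was 0.57. The collagen IV chains Col4a5 (log2 fold change 0.76), Col4a6 (0.82) and Col4a1 (0.57) form the second network of basement membranes, and Sparc (0.72) binds collagen. Of 19 integrin ligands tested, 14 were higher and none lower, with a median of 0.65. Thbs1, a thrombospondin, had 296, 261 and 293 CPM in labelled activated and 168, 141 and 136 CPM in labelled control libraries (0.93). Vcam1, the Itga4 ligand (0.85), Ccn2, a matricellular protein (0.85), and fibronectin, Fn1 (0.79), followed.

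Of 19 laminin receptors other than integrins and the enzymes that glycosylate dystroglycan, 11 were higher, none was lower and 8 were not called, with a median of 0.24. Over all genes tested, 16.2% were higher and 20.6% lower. The 4 genes of smallest p were the tetraspanin Cd151, which binds laminin-binding integrins (0.74), and the syndecans Sdc4 (0.72), Sdc2 (0.49) and Sdc1 (0.70). The intracellular side had calls in both directions. Of 37 adaptors, activators and signalling partners tested, 10 were higher, 12 were lower and 15 were not called, with a median of 0.04, equal to that of all genes. The 4 of smallest p were higher. They were the tensins Tns3 (0.62) and Tns1 (0.71), talin 1, Tln1, which switches integrins on (0.55), and the actin crosslinker filamin A, Flna (0.54). Talin 2, Tln2, also named after its value was seen, was called lower (−0.19) and was more abundant than Tln1. Tln2 had means of 204 CPM in labelled activated and 233 CPM in labelled control libraries. Tln1 had means of 70.1 and 47.8 CPM in the same order. The 12 that were lower included kinases and small adaptors, chosen for mention after their values were seen: Ptk2b fell by 0.37, Src fell by 0.20, Fyn fell by 0.27, Crk fell by 0.44 and Crkl fell by 0.44 on the log2 scale. These lists were drawn up with earlier results of these libraries known, and their counts are not independent of the pattern of the chains.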

How the data were processed

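Total RNA was isolated with Trizol and, after depletion of ribosomal RNA, read as strand-specific pairs of 150 bp, per the labels' protocols. The deposited files hold whole-number counts per gene and strand; per the submitters' processing notes, the authors used STAR 2.5.2b, mm10 and edgeR. The annotation used for counting was not given in the sources used here. Reverse-strand counts were used. Lines naming no gene were left out of library sizes. In labelled activated and labelled control libraries, an average of 32.6% and 27.7% of all reads lay outside annotated exons on the counted strand. In the same order, unmapped reads averaged 7.99% and 8.75%, multimapping reads 5.20% and 5.77%, and ambiguous reads 0.792% and 0.933%. Gene names and exon lengths came from GENCODE M21 (GRCm38), which matched 55144 of 55385 identifiers.

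Genes passing filterByExpr (at least 10 reads in enough libraries and 15 in total) were scaled by TMM and fitted with the quasi-likelihood test of edgeR 4.0.16 in R 4.3.3, with group as the only term and Benjamini-Hochberg adjustment at 0.05; the code was tested on simulated data. The SE was obtained by dividing the size of the log2 fold change by the root of its F statistic. RPKM is TMM-scaled CPM per kilobase of the union of a gene's exons. Every tested chain is named with its values, and of each pathway list the 4 genes of smallest p. Replicates had no duplicated library. The alternatives comprised 16 planned settings and 1 added later, among them DESeq2 1.42.0. The chains and all lists were chosen with earlier results of these data known.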

Additional observations from a re-analysis of the deposited data

Results flagged for a closer look

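Reads on the strand opposite to the gene, which the reverse-strand counts behind the calls leave out, were higher in CPM in all 3 libraries labelled activated than in any labelled control for 3 chains with at least 10 such reads in every library. The groups overlapped for Itga4, Itga11, Itgb5, Lama5 and Lamb1, which also had at least 10 such reads in every library. On the gene's own strand, 22.6% of all genes tested lay above. No such share is given for the opposite strand, so nothing is read from the count. Itga2 had 2.12 ± 0.324 CPM of opposite-strand reads in labelled activated and 1.49 ± 0.318 CPM in labelled control libraries (SD, n = 3). Itga5 had 2.51 ± 0.235 CPM in labelled activated and 1.49 ± 0.144 CPM in labelled control libraries. Itgav had 0.655 ± 0.106 CPM in labelled activated and 0.442 ± 0.0179 CPM in labelled control libraries. As a share of the reads on both strands, the groups overlapped for all 3 chains. The opposite-strand share of Itga2 was 57.8 to 73.4% in labelled activated and 62.8 to 72.6% in labelled control libraries. That of Itga5 was 18.9 to 26.1% in labelled activated and 19.1 to 21.7% in labelled control libraries, and that of Itgav was 0.306 to 0.435% in labelled activated and 0.324 to 0.357% in labelled control libraries. For Itga2 and Itga5 no exon on the opposite strand is annotated in GENCODE M21, and 5.90% of the Itgav exon length overlaps the opposite-strand gene Gm13684. No test was made of these differences.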

How the results depend on the processing

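The number of chains called higher, 22, was between 19 and 27 under 17 alternatives, and none was called lower under any of them. It was 27 when libraries were scaled to neuron markers, which moved the median log2 fold change of all genes to 0.20 and of the chains to 0.70, and 20 with the DESeq2 Wald test; with 1 library left out it was 19 to 23. With a replicate block it was 21, with Itga10 (log2 fold change 0.90) and Itgb2 (0.78) not called and Itga4 (0.28) called. The deviations of same-numbered libraries had correlations of −0.014, −0.18 and −0.21, and those of differently numbered ones −0.043 to 0.21. With 3 libraries per group, these values cannot show whether the numbers pair the samples. Over all genes, 2945 were higher and 3733 lower, against 5429 and 1756 when scaled to neuron markers and 2081 and 4579 with total counts only. Of the 22 chains called, 17 kept their call under every alternative that gave a value, and Itga10, Itgb4, Itgb2, Itga5 and Itgax lost it in at least 1. Of the 11 not called, 6 gained a call in at least 1 alternative (Itga4, Itga2, Itgam, Itgb3, Itgb8 and Lama3). No chain that was called changed sign. The cause of these changes was not tested. Without labelled activated 3, the median of the chains was 0.43. With the longest transcript as the length, 20 chains exceeded 1 RPKM in the labelled control group. The 13 chains below 5 CPM in labelled control libraries had a median coefficient of variation of 32.9% in labelled activated and 13.1% in labelled control libraries, which limits what can be said of them.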
